A study of Mus musculus with 27 samples.

Results

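The mitochondrial respiratory chain subunits that are encoded in the nucleus were examined in mouse calvarial cells during osteoblast differentiation. Members were the protein-coding genes whose symbol starts with Nduf, Uqcr, Cox4i, Cox5, Cox6, Cox7, Cox8 or Atp5, together with Sdha, Sdhb, Sdhc and Sdhd, and they numbered 95 of the 37991 genes in the count tables. By symbol, 46 belonged to complex I, 4 to complex II, 8 to complex III, 18 to complex IV and 19 to complex V. Of these, 10 are not subunits: the 8 Ndufaf genes, which encode assembly factors of complex I, and the accessory genes Atp5s and Atp5sl. Pseudogenes named after a member, of which the annotation held 10, were left out.

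Calvaria, the flat bones of the skull, came from C57BL/6J-Col3.6 CFP mice aged 5 to 9 days, which carry cyan fluorescent protein under the Col3.6 collagen promoter. Released cells were grown for 4 days, sorted for the fluorescent protein and cultured again with ascorbic acid and β-glycerol phosphate, the standard additions for mineralizing osteoblast cultures. RNA was sequenced on days 2, 4, 6, 8, 10, 12, 14, 16 and 18, with 3 profiles a day and 27 in all. The 3 profiles of a day carry 1 barcode and differ in sequencing lane, so they were summed and each day counted as 1 library. Every day belonged to the same strain and medium, and no group lacked differentiation medium. The study's methods describe the profiles of a day as triplicate samples, and treating them as 3 samples raises the number of calls, as given at the end. With 1 library a day, no replicate of a day enters the tests below, which use the scatter of the 9 days around a line or curve in day. All were bulk cultures, in which fewer cells of a type and less RNA per cell cannot be told apart.

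The respiratory chain sits in the inner mitochondrial membrane. Complexes I and II pass electrons from NADH and succinate to ubiquinone, complex III passes them on to cytochrome c, and complex IV reduces oxygen. Complexes I, III and IV pump protons, and complex V, the ATP synthase, uses the resulting gradient to make ATP. Complex II is encoded in the nucleus alone, whereas the other complexes combine nuclear subunits with a few made from mitochondrial DNA. Several subunits of complexes IV and V have paralogs that replace one another in particular tissues, such as heart and skeletal muscle, or under low oxygen.

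Promoter stretches of 8 members are shown to make concrete which short motifs lie at their start sites. Among 27025 genes with an entry in a RefSeq promoter table (GRCm38.p6, 250 bases before to 50 after the start), 78 members were matched and 17 were not. Each line below begins 125 bases before the start, or 170 for Cox6a1, and ends at the last base before it, or 5 bases further for Cox8a. Capitals mark the core of the NRF1 motif (GCATGCGC), the ETS motif bound by GABP (CCGGAAG) or the YY1 motif (AAGATGGC), on either strand. NRF1, GABP and YY1 are transcription factors known for acting on respiratory genes. Ndufaf4, Sdhb and Cox6b1 are members whose counts fell with day, Cox6a1 and Cox8a are ubiquitous complex IV subunits whose slopes were near 0, and Ndufv3, Cox8b and Cox6b2 are a member whose counts rose, a tissue-restricted isoform and an alternative isoform whose slope was not called.
Ndufaf4 (chr4:24897958-24898082, + strand): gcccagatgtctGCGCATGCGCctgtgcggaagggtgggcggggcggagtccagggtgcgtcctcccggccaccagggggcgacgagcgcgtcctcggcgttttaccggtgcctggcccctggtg
Sdhb (chr4:140961146-140961270, + strand): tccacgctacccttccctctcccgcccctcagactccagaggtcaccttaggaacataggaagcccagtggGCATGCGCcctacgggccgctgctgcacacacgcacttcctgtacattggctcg
Cox6a1 (chr5:115348959-115349128, - strand): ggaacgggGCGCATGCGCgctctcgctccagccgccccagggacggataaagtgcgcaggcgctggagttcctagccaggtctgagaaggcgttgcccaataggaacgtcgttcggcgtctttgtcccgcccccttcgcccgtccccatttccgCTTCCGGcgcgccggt
Cox6b1 (chr7:30626115-30626239, - strand): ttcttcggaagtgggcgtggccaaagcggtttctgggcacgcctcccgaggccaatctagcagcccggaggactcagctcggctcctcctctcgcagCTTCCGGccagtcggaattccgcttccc
Cox8a (chr19:7217612-7217741, - strand): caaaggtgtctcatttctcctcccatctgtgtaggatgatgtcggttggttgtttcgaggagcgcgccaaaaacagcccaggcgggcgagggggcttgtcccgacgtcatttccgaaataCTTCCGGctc
Cox6b2 (chr7:4753095-4753219, - strand): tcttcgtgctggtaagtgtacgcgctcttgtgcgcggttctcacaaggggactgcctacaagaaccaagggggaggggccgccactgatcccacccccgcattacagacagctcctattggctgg
Cox8b (chr7:140900447-140900571, - strand): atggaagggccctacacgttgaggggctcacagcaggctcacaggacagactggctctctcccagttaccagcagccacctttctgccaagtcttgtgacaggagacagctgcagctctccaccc
Ndufv3 (chr17:31519990-31520114, + strand): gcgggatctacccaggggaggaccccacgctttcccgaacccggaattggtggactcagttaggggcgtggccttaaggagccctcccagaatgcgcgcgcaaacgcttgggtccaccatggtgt
The NRF1 core reads almost the same on both strands, so that a run of GCGCATGCGC counts once on each; in Ndufaf4 and Cox6a1 such a run is present. Ndufv3, Cox8b and Cox6b2 held none of the 3 motifs in their 300 bases. No gene shown held a YY1 motif there. Beyond the printed lines, after the start, Sdhb held an ETS motif, Ndufaf4 a further NRF1 core and Cox8a a further ETS motif.

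Over all matched members, the NRF1 core was found in 12 of 78 promoters (15.4%), against 3.05% of the 27025 genes in the table. The ETS motif was found in 19 (24.4%, against 9.93%) and the YY1 motif in 12 (15.4%, against 3.19%). A CCAAT box, a common proximal promoter element, was found in 36 (46.2%, against 41.1%). At least 1 of the NRF1, ETS and YY1 motifs was present in 36 members (46.2%, against 14.9%). In the calls described next, 18 of the 36 matched members that fell (50.0%) and 18 of the 38 that were not called (47.4%) held one. By complex, 18 of 40 matched members of complex I, 2 of 3 of complex II, 3 of 5 of complex III, 3 of 13 of complex IV and 10 of 17 of complex V held one. A match is a string of letters and not evidence of binding.

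The question of the time course was how gene expression changes as pre-osteoblasts mature. Among the respiratory chain genes that changed, nearly all were higher early than late. Of 90 members with enough counts to test, 45 fell with day (50.0%), 2 rose and 43 were not called by edgeR's quasi-likelihood test at an adjusted p under 0.05. The same fit called 26.1% of all 15659 genes tested as falling and 28.3% as rising. The median change along the fitted line from day 2 to day 18 was -0.42 on the log2 scale for the members and 0.05 for all genes tested, and 74 of the 90 slopes were negative. A curve with 3 degrees of freedom called 39 members (43.3%), against 59.1% of all genes tested, a share under the background. Along that curve the median member changed by -0.32 from day 2 to day 10 and by -0.10 from day 10 to day 18, against 0.09 and -0.03 for all genes.

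The day on which a member had its highest and lowest level was unevenly spread. Levels are given as TPM, the share of transcripts that a gene takes after division by its length, after scaling each profile to its upper quartile. Day 2 was the highest day for 41 members and day 18 the lowest for 41. Day 10, the library with the fewest counts (22470195), was the lowest day for 22 members, and day 16 the highest for 16. Highest and lowest days were not counted over all genes, so these numbers do not set the members apart from other genes. On day 16 short genes as a whole stood higher: among members with a length under 1000 bases, CPM, counts scaled to library size without regard to length, exceeded the mean of days 14 and 18 by a median of 0.28 on the log2 scale and were higher in 85.9%. Among other genes of that length the median was 0.10 and 63.7% were higher, and among other genes of 2000 bases or more it was -0.02 and 45.2%. The part of transcript length in the day 16 values was not tested. By length, 30 of 64 members under 1000 bases fell (46.9%, against 24.4% of other genes of that length), 13 of 20 between 1000 and 2000 bases (65.0%, against 26.7%) and 2 of 6 of 2000 bases or more (33.3%, against 25.9%).

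**Figure D1:**
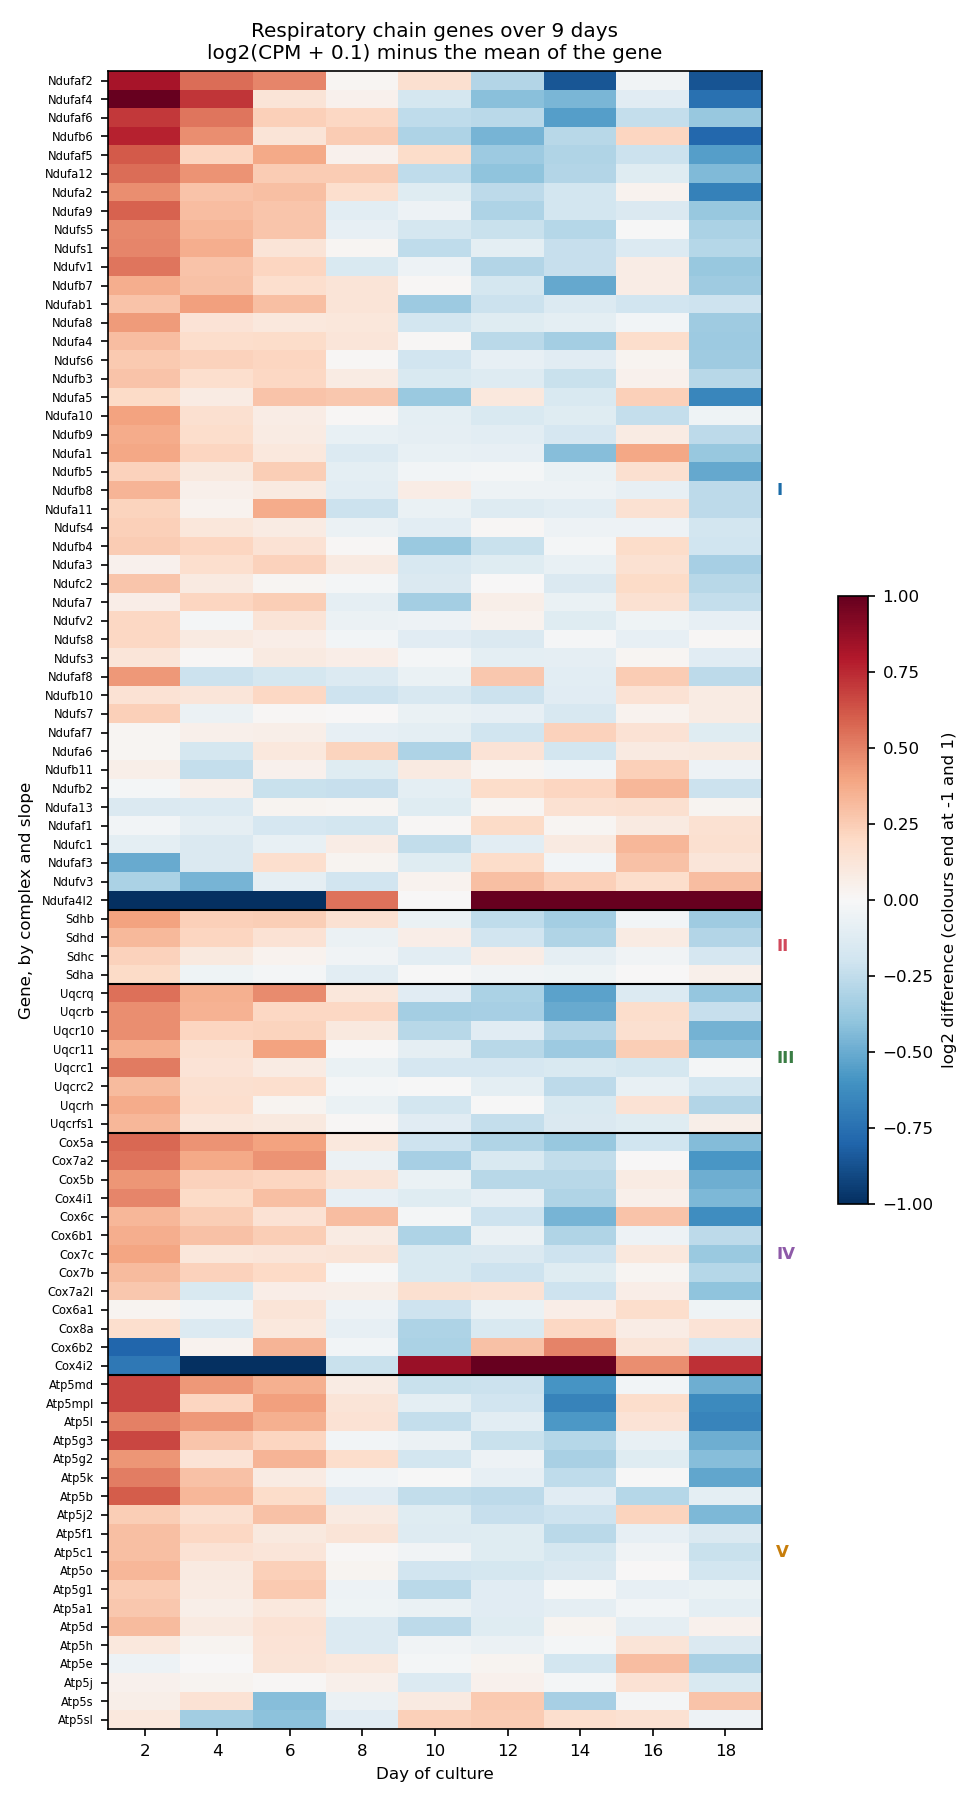
Heat map of 89 of the 90 tested members. Rows are genes, grouped by complex and ordered by slope within each, columns are the 9 days, and colours give log2(CPM + 0.1) minus the mean of the gene, ending at -1 and 1. Most rows run from red on day 2 to blue on day 18, day 16 is paler or red in many rows, and Ndufa4l2 and Cox4i2 run the opposite way.

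Complex I, the largest of the chain, takes electrons from NADH. Of its 46 members, 22 fell, 2 rose and 22 were not called, and the median change was -0.37. The Ndufs and Ndufv genes, which include the core subunits that hold the iron-sulfur clusters and flavin, had 6 falls and 1 rise among 11. The Ndufa genes, accessory subunits, had 6 falls and 1 rise among 14, and the Ndufb and Ndufc genes of the membrane arm had 5 falls among 12. Ndufs1, which carries iron-sulfur clusters, fell, with a change of -0.68 ± 0.13 (SE). Ndufs7 and Ndufs8, also core subunits, had slopes of -0.07 ± 0.14 and -0.17 ± 0.12 and were not called. These core subunits of complex I were therefore divided between called and uncalled members.

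Ndufa4 had the highest mean level among complex I symbols. It was named for complex I and is now regarded as a subunit of complex IV. Its level was 262, 253, 265, 245, 219, 203, 185, 270 and 182 TPM on days 2 to 18. Days 2 to 8 and day 16 were high and days 14 and 18 low. In counts it changed by -0.49 ± 0.18 (SE), with an edgeR adjusted p of 0.0435, a call lost when any 1 of days 2, 4, 6, 8, 10, 12, 14 and 18 was left out.

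The largest called falls in the whole set belonged to assembly factors and not to subunits. Ndufaf2, which helps build complex I, was at 48.4, 42.8, 42.2, 29.5, 31.4, 25.7, 16.5, 30.0 and 16.5 TPM on days 2 to 18. Days 2 to 6 all lay above the later days. In counts it changed by -1.45 ± 0.28 (SE; edgeR adjusted p = 0.00157). Ndufaf4, another assembly factor, was at 23.2, 22.0, 14.5, 12.6, 10.7, 10.9, 9.23, 11.0 and 6.71 TPM. Days 2 and 4 lay above all later days, and day 18 was lowest. Its change in counts was -1.45 ± 0.23 (SE; edgeR adjusted p = 0.000527). Ndufaf5 and Ndufaf6 also fell, by 1.01 and 1.22 on the log2 scale, while Ndufaf1, Ndufaf3, Ndufaf7 and Ndufaf8 were not called. The assembly factors thus had 4 falls among 8, the same share as the members as a whole.

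Both called rises were in complex I by symbol. Ndufv3, a small accessory subunit of the NADH-oxidizing arm, was at 45.0, 44.5, 56.0, 53.6, 56.8, 69.1, 64.6, 69.0 and 59.5 TPM on days 2 to 18. Every day from day 6 on lay above days 2 and 4. In counts it changed by 0.78 ± 0.16 (SE; edgeR adjusted p = 0.00192). Ndufa4l2, a paralog of Ndufa4 known as a target of hypoxia-inducible factor (chr10:126951995-126954208, + strand, NCBIM37), had 0, 6, 2, 26, 12, 84, 72, 97 and 63 counts. Days 2 to 6 lay below every later day. The summed counts of days 14 to 18 were 26.4 times those of days 2 to 6 after scaling to depth (95% exact interval 13.2 to 61.9, counting error only), from 232 and 8 counts. The fitted change was 5.32 ± 1.24 (SE; edgeR adjusted p = 0.00441), and the gene passed the filter on low counts only through the later days, when it was high. Its highest level was 4.65 TPM, on day 16, so that it stayed far under Ndufa4 on each day.

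**Figure D2:**
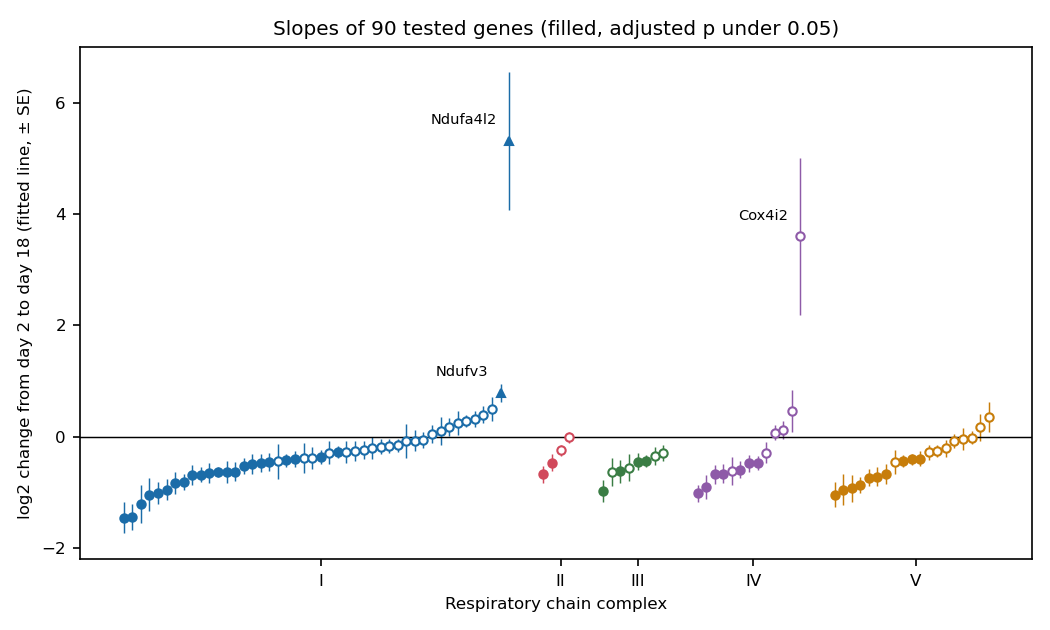
Fitted log2 change from day 2 to day 18 in counts for the 90 tested members by complex, with bars for the standard error. Filled circles fell and triangles rose at an adjusted p under 0.05, and open circles were not called. Nearly all points lie within about 1 unit of 0, mostly below it, apart from Ndufa4l2 at 5.32 and Cox4i2 at 3.60.

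Complex II, succinate dehydrogenase, also works in the citric acid cycle. Sdhb and Sdhd fell, Sdha and Sdhc were not called, and the median change was -0.36. Sdhb, the iron-sulfur subunit, was at 42.1, 40.03, 41.7, 38.0, 31.2, 30.9, 27.9, 35.5 and 27.6 TPM on days 2 to 18. Days 2 to 8 lay above every later day. Its slope in counts was -0.67 ± 0.15 (SE; edgeR adjusted p = 0.00390). Sdhd, a membrane anchor, was at 106, 105, 104, 86.9, 91.6, 86.3, 76.3, 102 and 76.8 TPM and changed by -0.47 ± 0.15 in counts (SE; edgeR adjusted p = 0.0206). That call was lost without day 2 (-0.43), day 4 (-0.45) or day 18 (-0.43), and with limma on TPM (-0.38). Sdhc, the other anchor, had the highest mean TPM of the complex, ranging from 171 on day 8 to 229 on day 12. The TPM used a mean length of 808 bases for Sdhc, 25.5% of its longest annotated transcript. Counts per kilobase of the longest transcript were 7861 for Sdhc, 24067 for Sdha, 17752 for Sdhd and 5976 for Sdhb, so that its rank depends on the scale. The slope of Sdhc was -0.25 ± 0.10 and was not called (edgeR adjusted p = 0.0629). All 4 slopes in counts were negative, under each scaling of the counts.

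Sdha, the flavoprotein that oxidizes succinate, looked different by count and by length-adjusted level. Its slope in counts was -0.02 ± 0.10 (SE; edgeR adjusted p = 0.912), with 209, 178, 181, 170, 182, 178, 178, 184 and 190 CPM on days 2 to 18. Its TPM was 115, 105, 133, 184, 167, 144, 110, 115 and 169. The highest and lowest days in TPM had similar CPM. The length that the deposited tables used to turn counts into TPM went from 2598 bases on day 2 to 1639 on day 8 and back to 2584 on day 16, as reads were divided differently among annotated isoforms. The same length moved 2.14 times in Ndufb2, 1.74 times in Ndufa12 and 1.71 times in Ndufaf6, and at least 1.5 times in 4 of the 95 members, with a median of 1.02. Ndufb2, a small complex I subunit, had a slope of 0.25 in counts and -0.71 in TPM. Its direction therefore depends on the isoform lengths and is given here as undetermined.

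Complex III, the cytochrome bc1 complex, had 4 falls and no rise among 8 members, and all 8 slopes were negative, with a median of -0.51. Uqcrh, the hinge protein, had the highest mean level at 163 TPM and was at 193 on day 2 and 135 on day 18, with a slope of -0.35 ± 0.16 that was not called (edgeR adjusted p = 0.0844). Uqcrq, a small subunit near the ubiquinone pocket, fell most. Its level was 99.98, 89.5, 109, 73.3, 61.6, 62.9, 46.6, 69.8 and 49.5 TPM on days 2 to 18. Days 2 to 6 lay above all later days. The fall in counts came to -0.98 ± 0.20 (SE; edgeR adjusted p = 0.00203). The large core proteins Uqcrc1 and Uqcrc2 fell by 0.45 and 0.44 on the log2 scale. Uqcrb and the Rieske iron-sulfur protein Uqcrfs1 were called only by the curve, with edgeR adjusted p of 0.0370 and 0.0220. Their fitted middle-day levels lay at -0.37 and -0.27 log2 units from the mean of both ends.

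Complex IV, cytochrome c oxidase, had 7 falls and no called rise among 13 tested members, with a median of -0.48. Cox5a, a subunit of the matrix side, fell most. Its level was 121, 118, 119, 93.2, 72.2, 76.3, 69.0, 79.8 and 66.4 TPM on days 2 to 18. Days 2 to 6 were level and every later day was lower. Counts gave a change of -1.02 ± 0.16 (SE; edgeR adjusted p = 0.000391). Cox7c, a small subunit, had the highest mean level of the complex at 371 TPM. It was at 458, 403, 402, 399, 308, 355, 322, 411 and 278 TPM, and in counts it changed by -0.48 ± 0.15 (SE; edgeR adjusted p = 0.0224), a call lost without day 2 (-0.38), without day 18 (-0.39) and for early against late days (-0.34). A pseudogene named after Cox7c had 3008 counts, against 22146 for Cox7c itself, so that reads of the pair could have been divided. With the pseudogene counts added to those of Cox7c, the slope was -0.54 and stayed called. Cox4i1, the ubiquitous form of the regulatory subunit, fell from 322 TPM on day 2 to 186 on day 18, with a change of -0.67 ± 0.17 in counts. Cox6a1 and Cox8a, whose promoter stretches are shown above, had slopes of 0.07 ± 0.13 and 0.12 ± 0.17 and were not called. Counts per kilobase of the longest annotated transcript were 36825 for Cox4i1 and 36577 for Cox6a1, above the 31235 of Cox7c. The first rank of Cox7c therefore holds for TPM and not for that scale.

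Complex IV was the complex with the most alternative isoforms, and 5 of its members did not pass the filter on low counts. Cox8c, the testis form of subunit 8, had 0 counts on all days, where 3 counts correspond to between 0.0484 and 0.134 CPM. Cox7b2 had 5 counts in all, Cox6a2, the heart and muscle form of subunit 6a, had 11, and Cox7a1, the heart and muscle form of subunit 7a, had 17. The count of Cox7a1 over days 14 to 18 was 1.59 times that over days 2 to 6 after scaling (95% exact interval 0.405 to 7.43), which does not set the periods apart. These forms were close to the detection limit throughout.

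Cox4i2 and Cox8b did reach later days in higher numbers. Cox4i2 (chr2:152579909-152590773, + strand, NCBIM37), the paralog of Cox4i1 known from lung and from cells at low oxygen, had 11, 4, 0, 13, 22, 78, 91, 36 and 38 counts on days 2 to 18. In CPM, days 10 to 18 all lay above days 2 to 8, with the highest value on day 14. Days 14 to 18 had 10.0 times the counts of days 2 to 6 after scaling (95% exact interval 5.90 to 18.3, counting error only). The fitted line gave 3.60 ± 1.41 (SE; edgeR adjusted p = 0.0510), just past the threshold, and the curve called it (edgeR adjusted p = 0.0128). Cox4i2 passed the filter on low counts mainly through the later days, when it was high. Cox8b, the heart and muscle form of subunit 8 that is also abundant in brown fat, had 0, 2, 0, 0, 0, 7, 5, 13 and 17 counts. Every day from day 12 on lay above every earlier day. With 35 counts on days 14 to 18 against 2 on days 2 to 6, the late level was 15.9 times the early one after scaling (95% exact interval 4.10 to 136.9, counting error only). Against Cox8a, at between 193 and 297 TPM, Cox8b reached 7.59 TPM on day 18.

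**Figure D3:**
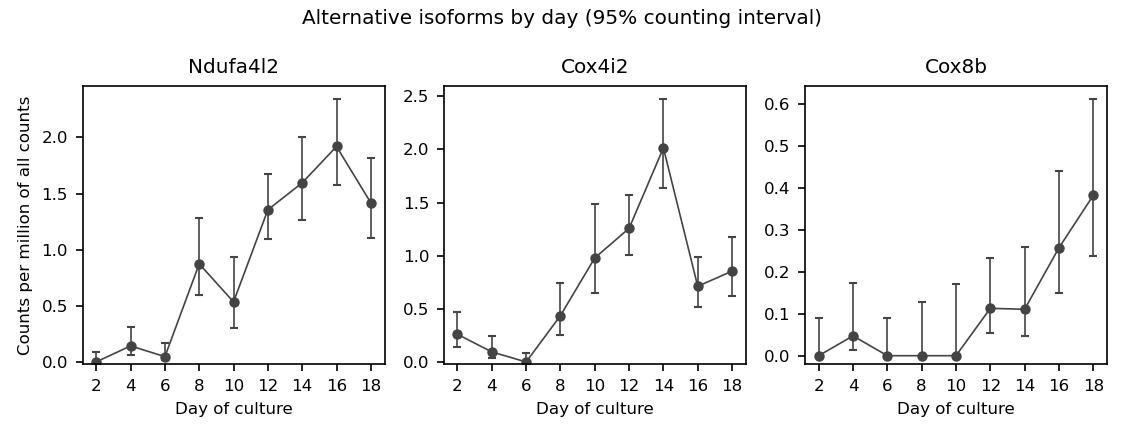
Ndufa4l2, Cox4i2 and Cox8b in CPM by day, with 95% Wilson intervals that cover counting error only and a vertical scale of its own for each gene. Ndufa4l2 and Cox4i2 are near 0 up to day 6 and lie between 0.534 and 2.02 from day 10 on, while Cox8b has 0 or 2 counts up to day 10 and between 5 and 17 from day 12.

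Cox6b2, known mainly from testis, was well measured in these cells. It was at 16.9, 32.4, 41.6, 31.0, 24.5, 42.4, 46.7, 36.9 and 29.3 TPM on days 2 to 18, and its slope of 0.46 ± 0.38 was not called (edgeR adjusted p = 0.334). Day 2 was its lowest day. Cox6b1, the ubiquitous form, was at 173 TPM on day 2 and 125 on day 18. The ratio of Cox6b2 to Cox6b1 in TPM thus ran from 0.0978 on day 2 to 0.235 on day 18, with a highest day of 0.386. Cox7a2l, which is related to the subunit 7a isoforms and is known for its part in supercomplexes, was between 64.5 and 98.6 TPM with a slope of -0.29 ± 0.19.

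Ratios of interchangeable subunits were tested against day for the 5 pairs in which both genes had at least 10 counts each day. The log2 count ratio of Cox6b2 to Cox6b1 rose with day, with Pearson r = 0.707 (exact permutation p = 0.0222, adjusted over 5 pairs 0.0369) and Spearman rho = 0.700 (exact permutation p = 0.0433, adjusted 0.0721, n = 9 days). Atp5g1, Atp5g2 and Atp5g3 encode the same mature c subunit of the ATP synthase rotor with different leader peptides. The ratio of Atp5g1 to Atp5g3 rose with r = 0.803 (exact permutation p = 0.00932, adjusted 0.0369; rho = 0.750, p = 0.0255, adjusted 0.0721). The ratio of Atp5g1 to Atp5g2 rose with r = 0.759 (exact permutation p = 0.0157, adjusted 0.0369; rho = 0.717, p = 0.0369, adjusted 0.0721). Without the first and last day, r was 0.705, 0.526 and 0.564 for these pairs in turn, over 7 days, and none passed (exact permutation p = 0.0694, 0.229 and 0.178). For Cox6b2 to Cox6b1 r itself hardly moved, while for both Atp5g1 pairs it was lower. As ratios of TPM, both Atp5g1 pairs no longer passed, with r = 0.580 for Atp5g1 to Atp5g3 and 0.417 for Atp5g1 to Atp5g2. The ratios of Cox7a2l to Cox7a2 (r = 0.636, exact permutation adjusted p = 0.0868; rho = 0.567, adjusted 0.151) and of Atp5g2 to Atp5g3 (r = 0.324, exact permutation adjusted p = 0.385; rho = 0.350, adjusted 0.359) did not pass. All tests were two-sided.

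Complex V, the ATP synthase, had 10 falls and no rise among 19 members, with a median of -0.41. All 17 subunits had a negative slope in counts under each scaling, though not in TPM, where Atp5e was above 0, and the 2 positive slopes were those of the accessory genes Atp5s and Atp5sl, neither called. Atp5md, a small subunit of the membrane part, fell most. Its level was 244, 220, 217, 173, 135, 153, 112, 170 and 120 TPM on days 2 to 18. Days 2 to 6 lay above all later days. In counts it changed by -1.05 ± 0.22 (SE; edgeR adjusted p = 0.00274). Of the rotor c subunit genes, Atp5g2 and Atp5g3 fell, by 0.74 and 0.87 on the log2 scale, and Atp5g1 had a slope of -0.28 ± 0.14 that was not called. The catalytic partner Atp5a1 had a slope of -0.26 ± 0.10 (edgeR adjusted p = 0.0605).

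Atp5b, the catalytic beta subunit (chr10:127520329-127527447, + strand, NCBIM37), stood far above every other member. Its level was 6387, 5582, 5260, 4176, 3605, 4021, 4359, 3889 and 4315 TPM on days 2 to 18. Its lowest day was day 10, and the values from day 8 on stayed between 3605 and 4359. It changed by -0.68 ± 0.18 in counts (SE; edgeR adjusted p = 0.00831), and this call was lost without day 2. On day 10 its curve lay -0.41 log2 units from the mean of its ends, the second-lowest such value among the tested members, after Ndufaf4 at -0.43. From day 10 to day 18 the curve of Atp5b changed by 0.07, whereas that of Ndufaf4 fell further, by -0.35. Atp5b took between 0.138% and 0.258% of all counts, 39.3% of the counts of all members and 34.9% of their summed TPM.

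How far Atp5b exceeds its partner depends on the scale, although both subunits enter the enzyme in equal number. In TPM, Atp5b was between 16.2 and 23.4 times Atp5a1 across the days. In counts it was between 5.14 and 7.76 times Atp5a1. The TPM used a mean length of 867 bases for Atp5b, 45.2% of its longest annotated transcript of 1916 bases, and 2073 bases for Atp5a1, 77.5% of its longest of 2674. Counts divided by the longest transcript gave 8.76 times. Atp5b was the highest member of complex V on each of these scales. In 18 members the length used was under 60% of the longest transcript, so that levels compared between genes carry this uncertainty.

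**Figure D4:**
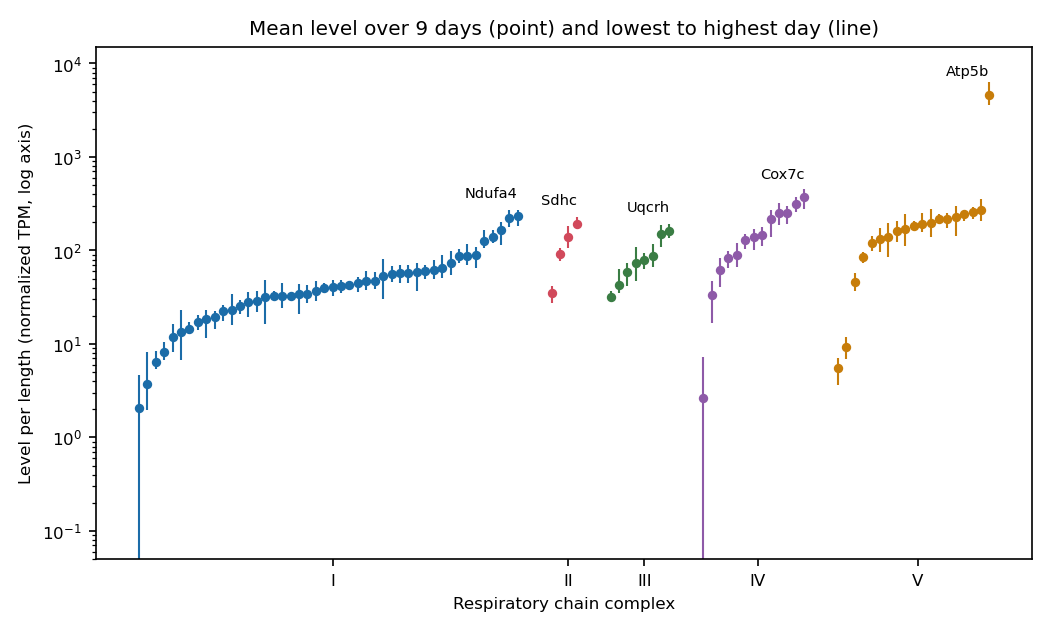
Mean upper-quartile-normalized TPM of the 90 tested members over the 9 days (points, log axis) with lines from the lowest to the highest day, grouped by complex and ordered by mean. The highest member of each complex is named. Atp5b lies at 4621 TPM, 17.0 times the next member of complex V, and the lines of Ndufa4l2 and Cox4i2 reach the bottom of the axis because 1 day was at 0.

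Summed over its members, each complex ended below its day 2 value in TPM, complex II only slightly. From day 2 to day 18 the sum fell to 0.756 of its start for complex I, 0.645 for complex III, 0.729 for complex IV and 0.689 for complex V, or 0.713 for complex V without Atp5b. The sum for complex II was at 0.972, a value that carries the shifting length of Sdha, and in CPM it was at 0.809. In CPM the other complexes ended at 0.690, 0.668, 0.652 and 0.646, for I, III, IV and V. The sums have no replicate and were not tested.

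The subunits encoded in mitochondrial DNA moved the other way. Of 13 such genes 10 rose and none fell, and the median change was 0.68. The summed TPM of 12 of them, without mt-Atp8, which the tables list at 0 TPM beside 3597 counts, was 23596 on day 2, 31307 on day 10 and 36736 on day 18, which is 1.56 times the first value. The nuclear members came to 0.687 times that sum on day 2, 0.352 on day 10 and 0.314 on day 18. mt-Co3, a core subunit of complex IV, rose by 0.84 ± 0.11 (SE; edgeR adjusted p = 0.000147), while its nuclear partner Cox5a fell. Leaving the mitochondrial ribosomal RNA genes out of the scaling left the members' median at -0.42. The mitochondrially encoded subunits stayed in that scaling, and their part in it was not tested.

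**Figure D5:**
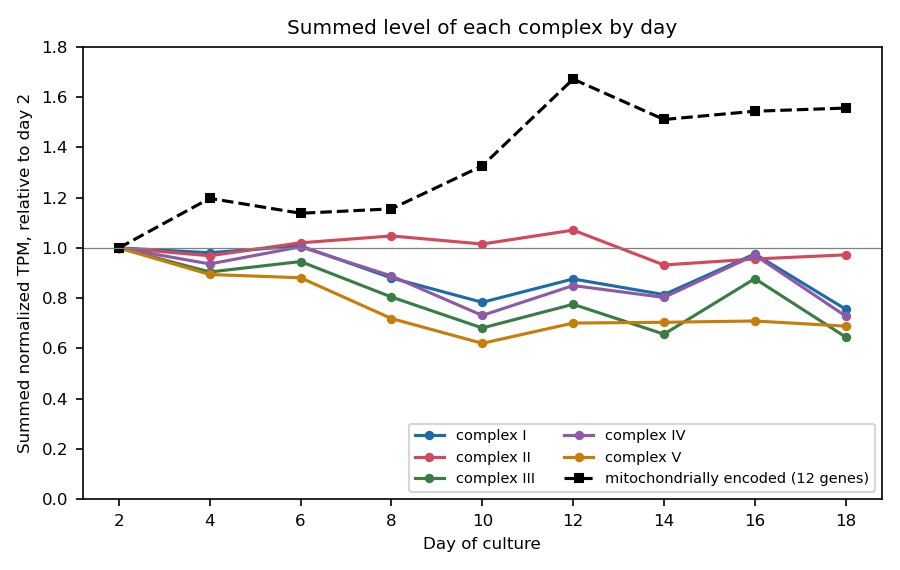
Summed normalized TPM of the nuclear members of each complex (coloured lines) and of 12 mitochondrially encoded subunits (black dashed line) by day, each relative to its own day 2. The mitochondrial sum ends at 1.56 and the sums for complexes I, III, IV and V end between 0.645 and 0.756, while complex II stays near 1.

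Genes around the chain were examined as lists. Of all genes tested, 26.1% fell and 28.3% rose, and the counts below are to be read beside these shares. Both genes of the cytochrome c list fell: Cycs, the mobile carrier itself, by 1.32 and Cyc1, the cytochrome c1 of complex III, by 0.85 on the log2 scale. Of 13 citric acid cycle enzymes, 5 fell and 1 rose, with a median of -0.28. Idh3a, the catalytic subunit of isocitrate dehydrogenase, fell by 1.19 and malate dehydrogenase Mdh2 by 0.90, while Suclg2 rose by 0.32. Of 33 assembly factors outside the symbol rule, 8 fell and 3 rose, with a median of -0.23. The share that fell was near that of all genes tested, and the share that rose was lower. Lrpprc, which stabilizes mitochondrial messenger RNA, fell by 1.02 ± 0.10 (SE; edgeR adjusted p = 3.74e-05), and Surf1, a complex IV assembly factor, rose by 0.90 ± 0.16 (SE; edgeR adjusted p = 0.000809).

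Among 13 transcription regulators of respiratory genes 4 rose and 4 fell, near the shares of all genes tested (28.3% rising and 26.1% falling). Ppargc1a, a coactivator known for raising mitochondrial gene expression, was at 0.198 TPM on day 2, 8.47 on day 10 and 14.1 on day 18, a change of 7.10 ± 1.23 (SE; edgeR adjusted p = 0.000804). Ppargc1b and Esrrg also rose, by 1.92 and 2.94, from levels under 1 TPM on day 2. Pprc1, a relative of Ppargc1b, fell by 1.12 and Gabpb1, the partner of Gabpa in GABP, by 0.61 on the log2 scale. Yy1 fell by 0.56, whereas Nrf1, Gabpa and Tfam, with slopes of -0.37, 0.09 and -0.04, were not called. The counts of calls thus do not set the regulators apart from all genes tested.

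A hypoxia list was examined because Ndufa4l2 and Cox4i2 are known to respond to low oxygen. Of 10 tested genes 5 fell and 3 rose, with a median of -1.29, against 26.1% of all genes tested falling and 28.3% rising. Ldha, lactate dehydrogenase, went from 1020 TPM on day 2 to 454 on day 18, a change of -1.26 ± 0.20 (SE; edgeR adjusted p = 0.000447). Pgk1 fell by 1.91 and the glucose transporter Slc2a1 by 2.16, while Pdk1, which restrains pyruvate entry into mitochondria, rose by 2.79 and Bnip3 by 1.03. The list was divided in direction.

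Cell type markers also moved over the same days. Of 10 osteoblast markers 7 rose and none fell, with a median of 2.07. Of 7 macrophage markers 6 rose, and their summed level went from between 24.1 and 61.7 TPM on days 2 to 6 to between 522 and 2014 TPM on days 14 to 18. Of 7 tested adipocyte markers 6 rose, and the summed level of the list went from between 9.54 and 11.4 TPM to between 236 and 554 TPM. The brown fat markers of the list went different ways. Ucp1 and Elovl3 were at 0 counts and Cidea at 18. Dio2 rose from 0.869 TPM on day 2 to 143 on day 18, and Prdm16, at a mean of 4.97 TPM, was not called. Among skeletal muscle markers 1 rose and 1 fell of 5 tested, and the curve called all 5. Myh1 rose from 0.153 TPM on day 2 to 4.79 on day 18, and Acta1 fell from 5.56 to 0.388. Ckm was at 0 counts and Myog at 1. Of 6 tested pericyte markers 3 rose and 2 fell, with summed levels between 69.6 and 71.0 TPM early and between 74.2 and 77.1 late, and Higd1b had 1 count in all. The part of these cell types in the change of the members was not tested, and in bulk cultures it cannot be told apart from change within the osteoblasts.

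The calls leaned on the ends of the course. Without day 2, 28 of the 47 called members kept their call, and without day 18, 33 did. Leaving out any other day kept between 39 and 45. The median member change was between -0.46 and -0.32 under the other scalings and fits, with the median of all genes between 0.01 and 0.09. With the 27 files as separate samples, 65 members fell and 8 rose.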

How the data were processed

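RNA sequencing profiles of cultured mouse calvarial osteoblasts at 9 time points were used, 27 in all. The authors aligned reads with Bowtie 0.12.9 to NCBIM37 transcripts and quantified genes with RSEM (version 1.2.8 by the submitters' processing notes), giving a fragment length mean and spread as parameters. Deposited with each profile are the authors' estimated counts per gene (RSEM expected counts), which are not normalized. In the deposited TPM values, a count has been divided by the effective length of the gene, a mean over its isoforms. The FPKM values deposited by the authors use the same length and served only as an alternative. Libraries were amplified with a NuGEN Ovation step, and whether reads were counted by strand is not given in the sources used here.

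The 3 profiles of a day share 1 barcode and were summed and rounded, giving between 22470195 and 62009157 counts a day (median 43146793). A line in day, and separately a natural spline of 3 degrees of freedom, was fitted to the summed counts by the quasi-likelihood test of edgeR 4.0.16 in R 4.3.3. Factors were from the upper quartile, filterByExpr kept genes at a minimum count of 10, and Benjamini-Hochberg adjustment ran over 15659 genes (threshold 0.05). The change given is the slope times the 16 days between first and last. The p-values measure scatter of days around the fit, and lane profiles carry technical spread alone (dispersion 0.000238 between lanes, 0.0581 around the line). For levels, TPM was scaled so that the upper quartile of the nonzero values was equal in all profiles. Intervals and floors of 3 counts cover counting error only.

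Symbols came from the GENCODE annotation of NCBIM37 (37205 of 37991 identifiers) and newer symbols from a GRCm38.p6 gene table: 89 members matched by the first and 6 by the second alone, and 1 second identifier of a member was dropped. Counts were whole numbers in 69 members and were divided among genes in 26. The members and the lists were chosen with earlier results of these data known. Genes named were the highest, the largest called rise and the largest called fall of each complex, the alternative isoforms, the Sdh genes, untested members and the extremes of the spline; the other members named were picked by function after their values were seen. Lists covered cytochrome c, mitochondrially encoded subunits, assembly factors, regulators, citric acid cycle, hypoxia and markers of osteoblasts, adipocytes, skeletal muscle, pericytes and macrophages. Ratios were tested by exact permutation over 9 days with 0.5 added to each count. Alternatives were TMM and DESeq2 1.42.0 size factors, the DESeq2 Wald test, mitochondrial ribosomal RNA genes left out, pseudogene counts added, and other filters. Further ones were limma 3.58.1 on log2(TPM + 0.5) and log2(TPM + 1), 27 files with and without a replicate block, and replicates or days left out. Values of 1 member are not reported here, though it is counted among the members.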

Additional observations from a re-analysis of the deposited data

How the results depend on the processing

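Of 563 recomputed values, 477 kept their direction and their side of the threshold, or moved by less than the limit set for them. Among slopes 370 did so, 24 newly passed, 25 no longer passed and 4 changed sign. The sign changes were all in the uncalled slope of Sdha, -0.02 as reported, which was 0.23 with limma on TPM + 0.5, with and without a filter, 0.23 with TPM + 1 and 0.11 without day 2. The number of falling members, 45 as reported, was 34 with limma on TPM + 0.5, 34 with TPM + 1 and 28 without a filter. It was 34 for early against late days, 26 without day 2, 32 without day 18 and 51 without day 16. With each replicate left out it was between 43 and 47. The number of rising members, 2 as reported, was 8 with limma on TPM + 0.5, 8 with TPM + 1 and 6 without a filter, 4 for early against late days, 4 without day 6 and 4 without day 18, and between 2 and 4 with each replicate left out. With the 27 files as separate samples, rising members numbered 8, falling members 65 and members called by the curve 73. With the replicate block these were 8, 64 and 73, but files of a day are lanes of 1 library and their spread is technical. The replicate numbers do not pair samples: the mean correlation of deviations was 0.00566 for the same number and -0.00283 for different ones. On TPM, r was 0.417 for Atp5g1 to Atp5g2 and 0.580 for Atp5g1 to Atp5g3, and without the first and last day r was 0.564, 0.526 and 0.705 for Atp5g1 to Atp5g2, Atp5g1 to Atp5g3 and Cox6b2 to Cox6b1. For Atp5g2 to Atp5g3, not called, r went from 0.324 to -0.0408 without those days. For Cox7a2l to Cox7a2, r lay between 0.513 and 0.726 with each replicate left out. The causes of these changes were not tested. With 1 library a day, changes between neighbouring days cannot be judged, and at this depth Cox6a2, Cox7a1, Cox7b2, Cox8b and Cox8c could not be fitted.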
